A study of Mus musculus with 48 samples.

Results

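E proteins and Id proteins form a small network of helix-loop-helix factors. The 6 genes described here are the 3 E protein genes Tcf3, Tcf4 and Tcf12 and the 3 Id genes Id1, Id2 and Id3. They were taken by name (TCF3, TCF4, TCF12, ID1, ID2 and ID3) from 21025 gene models, and each name matched 1 row. All 6 were read in each of 30 mouse RNA-sequencing libraries, which are part of a series of 48 samples on the transcription factor Ikaros, encoded by Ikzf1, in early B cell development. The 18 chromatin immunoprecipitation samples were not analysed here.

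The pro-B cells with deletion were Ikzf1(fl/-) Cd79a(Cre/+), and their controls were Ikzf1(fl/+) Cd79a(Cre/+), all on C57BL/6. Cre is expressed from the B-lineage gene Cd79a, so every group of this design, controls included, carried 1 altered Cd79a allele, and the controls kept 1 Ikzf1 allele that Cre does not act on. The design was run in 3 settings of 2 control and 2 deleted libraries each. These were pro-B cells, pro-B cells with high c-Kit, and pro-B cells that were also Rag2(-/-) in both arms. Wild-type pre-B cells (2 libraries) carried neither Cre nor a changed Ikzf1 allele. Pre-pro-B cells were Ebf1(-/-) in every library and carried an empty vector, the control hairpin Ren713, or 1 of the 2 Ikzf1 hairpins Ik4056 and Ik2709, with 4 libraries for each. The labels give no age, and do not say whether libraries of a group came from separate animals or cultures, so the p-values below measure the spread between libraries, which may be technical.

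E proteins bind the short DNA motif called the E-box as dimers with one another, and in lymphoid progenitors they turn on lineage genes; the Tcf3 products E12 and E47 are needed for B cell development. Id proteins have the helix-loop-helix part but lack the basic part that touches DNA, so an E protein paired with an Id protein cannot bind. Id genes are known to be induced by growth signals and by BMP and TGF-beta signals, and Id3 by T cell receptor signals through Egr factors.

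The promoters of Tcf3 and Id3 are shown because these were the E protein and the Id gene with the highest level in most pro-B libraries, and both fell with deletion in pro-B cells. The sequences are the 250 bases before the transcription start in RefSeq, build GRCm38.p6, read 5′ to 3′ on the strand of the gene. Capitals mark the E-box letters CANNTG and the letters TGGGAA, which hold the core of known Ikaros sites. Both motifs were searched on both strands, and CANNTG reads as CANNTG on either strand. The files of expression values use another build, so these coordinates belong to the sequences only.
Tcf3, chr10:80433636-80433885, minus strand: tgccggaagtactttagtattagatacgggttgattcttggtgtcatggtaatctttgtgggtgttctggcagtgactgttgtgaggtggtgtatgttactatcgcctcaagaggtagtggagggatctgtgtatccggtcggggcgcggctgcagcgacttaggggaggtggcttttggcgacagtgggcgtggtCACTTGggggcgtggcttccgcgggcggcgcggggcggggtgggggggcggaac
Id3, chr4:136143572-136143821, plus strand: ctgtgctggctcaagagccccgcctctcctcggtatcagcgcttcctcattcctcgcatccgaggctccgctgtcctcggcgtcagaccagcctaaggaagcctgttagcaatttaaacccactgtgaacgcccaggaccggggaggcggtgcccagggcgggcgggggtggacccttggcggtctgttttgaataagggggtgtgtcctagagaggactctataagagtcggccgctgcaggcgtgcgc
The Tcf3 window held 1 E-box, CACTTG, whose first base lies 54 bases before the start. The Id3 window held no E-box letters, and neither window held TGGGAA. Of 32851 promoter windows of this length, 66.2% held CANNTG and 21.6% held TGGGAA. The Id2 window and 1 of the 3 Tcf12 windows each held the E-box CAGCTG, which 13% of windows hold. A match is a description of the letters, and no binding was analysed here.

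Expression is given as RPKM, read counts scaled to the length of the gene model and to the mapped reads of the library, which allows levels of different genes to be set side by side. Steps in the low values gave an implied depth for 26 libraries, from 2310000 to 36070000 reads, lowest in a c-Kit-high control. RNA of Ikzf1, the targeted gene, was at 36.7 to 86.0 RPKM in the 6 deleted libraries and 56.2 to 124 in their 6 controls, and was lower on average in each deleted group, by -0.29 on the log2 scale in pro-B cells (adjusted p = 0.178, not called), -0.58 in c-Kit-high cells (adjusted p = 0.0144) and -0.62 in Rag2-null cells (adjusted p = 0.00893), and fell with the hairpins by 1.57 on the log2 scale (adjusted p = 6.54e-06). The gene-wide value includes any reads outside the deleted part, so it checks the deletion only in part. The summed level of 9 B-lineage markers was 1537 to 4992 RPKM in pro-B and pre-B libraries and 38.9 to 71.2 in pre-pro-B libraries. In the latter Ebf1 itself was the most abundant of these markers, at group means of 20.5 to 28.8 RPKM, although the label gives Ebf1(-/-); the gene-wide value does not check the altered part of that gene. The pre-B libraries also held 7477 to 7783 RPKM over 12 granulocyte and monocyte markers, with S100a9 the most abundant, against 13.9 to 14.5 in pro-B controls and 154 to 700 in c-Kit-high controls.

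Tcf3 was the most abundant E protein transcript in all groups, and it was exceeded by another member in 1 library, the Rag2-null deleted replicate 1, where Id3 was at 186 and Tcf3 at 174 RPKM. Its level ran from 118 RPKM in a library with hairpin Ik2709 to 645 in a pre-B library. Tcf12, which encodes HEB, ran from 10.8 to 77.7 RPKM and Tcf4, which encodes E2-2, from 6.73 to 49.4. Among the Id genes, Id3 ran from 7.60 to 202 RPKM, Id2 from 0.882 to 38.7 and Id1 from 0.234 to 29.3. No member was listed at 0 in any library. The leading Id gene differed between the pre-pro-B groups and the other groups. Id3 made up 84.3% to 97.9% of the summed Id RPKM in the pro-B and pre-B groups, while Id2 made up 68.7% and 70.0% in the 2 pre-pro-B control groups.

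**Figure D1:**
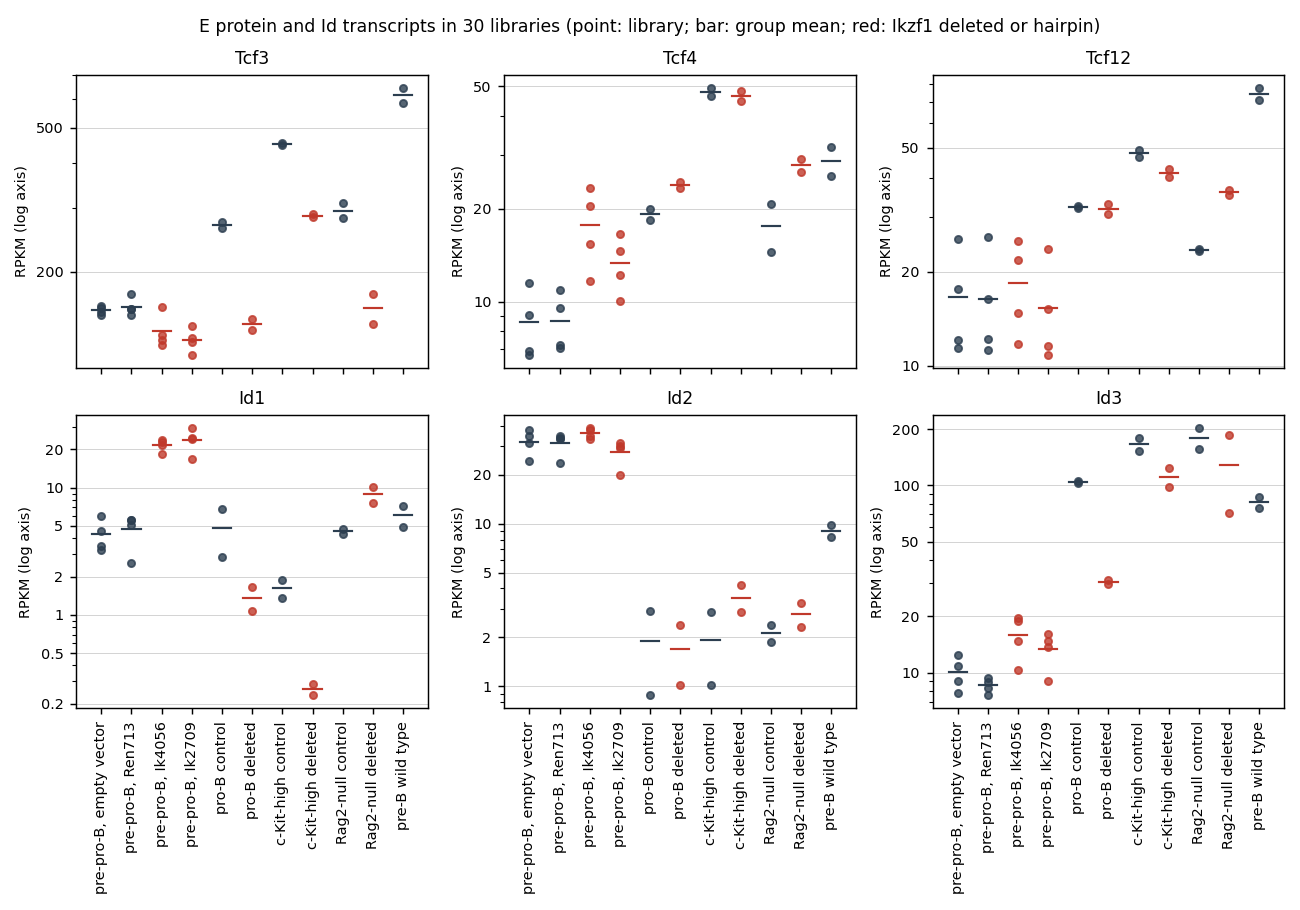
RPKM of the 6 genes (log axis) in 30 libraries of 11 groups; a point is a library, a bar is the group mean, and red marks Ikzf1 deletion or an Ikzf1 hairpin. Tcf3 lies lower in the deleted group of each pair of pro-B groups, Id2 is above 20 RPKM in the pre-pro-B libraries and below 10 elsewhere, and Id1 stands apart in the libraries with Ikzf1 hairpins, at 16.8 RPKM or more.

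Ranked by group mean, Tcf3 was highest in pre-B cells (616 RPKM), then c-Kit-high controls (451), Rag2-null controls (295), c-Kit-high deleted cells (286) and pro-B controls (269). Rag2-null controls and c-Kit-high deleted cells overlapped in that order, and 5 of its 10 neighbouring pairs of groups overlapped. Tcf12 had the same 2 leading groups, with 74.4 RPKM in pre-B cells and 47.9 in c-Kit-high controls, and again 5 of 10 neighbouring pairs overlapped. Tcf4 was highest in c-Kit-high controls (47.9) and c-Kit-high deleted cells (46.6), which overlapped, as did 7 of its 10 pairs. Id3 was highest in Rag2-null controls (179), whose values overlapped those of c-Kit-high controls (166), with 7 of 10 pairs overlapping. Id2 was above 20 RPKM in every pre-pro-B library and below 10 in every other, and 8 of its 10 pairs overlapped. Id1 was highest in the libraries with hairpins Ik2709 (23.7) and Ik4056 (21.7), and 6 of its 10 pairs overlapped.

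Differences were tested with limma on log2(RPKM + 1) over all genes that reached 1 RPKM in 2 or more libraries of the fit, and a difference was called where the p-value, adjusted by Benjamini-Hochberg over all genes, was under 0.05. A log2 difference below is on that scale, which understates changes of low genes. All 6 members passed the filter in both fits. In bulk RNA, fewer cells of a type and less RNA per cell cannot be told apart.

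Deletion of Ikzf1 lowered Tcf3 in all 3 pro-B settings, and in pro-B cells it also lowered Id3 and Id1. In pro-B cells 3 of the 6 genes were called, all lower, against 23.4% of 11937 genes called in either direction (13.5% higher, 9.89% lower). In c-Kit-high cells 2 of 6 were called, Tcf3 and Id1, both lower, against 17.2% of all genes called in either direction (11.6% higher, 5.6% lower). In Rag2-null cells 3 of 6 were called, Tcf3 lower and Tcf4 and Tcf12 higher, against 22.3% of all genes (15.5% higher, 6.84% lower). The median log2 difference over all genes was 0.03, 0.03 and 0.06 in these comparisons.

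Tcf3 was at 264 and 274 RPKM in pro-B controls and at 148 and 138 in deleted pro-B cells. The groups did not overlap, and the level fell by 0.91 ± 0.11 (SE) on the log2 scale (adjusted p = 7.81e-05, n = 2 and 2). In c-Kit-high cells it was at 449 and 453 RPKM in controls and 289 and 283 with deletion, a drop by 0.66 ± 0.11 (adjusted p = 0.00122). In Rag2-null cells it was at 309 and 281 RPKM in controls and 174 and 143 with deletion, where it fell by 0.90 ± 0.11 (adjusted p = 0.000102). All 6 deleted libraries thus lay below all libraries of their own control group. The control level of c-Kit-high cells was 1.68 times that of pro-B cells, and their deleted cells still held more Tcf3 RNA than pro-B controls did.

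Tcf12 and Tcf4 did not follow Tcf3. Tcf12 was at 23.7 and 23.3 RPKM in Rag2-null controls and at 35.3 and 36.6 with deletion, so both deleted libraries were higher, by 0.59 ± 0.10 on the log2 scale (adjusted p = 0.00108). In pro-B cells its 4 libraries lay between 30.7 and 32.9 RPKM and the groups overlapped, with a log2 difference of -0.02 (95% interval -0.24 to 0.20). In c-Kit-high cells it was at 49.2 and 46.6 RPKM in controls and 40.3 and 42.7 with deletion, which was not called (adjusted p = 0.199). The Rag2-null rise of Tcf12 was not called when all 30 libraries shared 1 estimate of spread (adjusted p = 0.348).

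Tcf4 was at 20.7 and 14.5 RPKM in Rag2-null controls and at 29.1 and 26.3 with deletion. The groups did not overlap, and the log2 difference was 0.64 ± 0.16 (adjusted p = 0.0108). That call was lost without control replicate 2 (log2 0.40, adjusted p = 0.0983), without deleted replicate 1 (0.57, adjusted p = 0.0828) and in fits of the 4 Rag2-null libraries alone (adjusted p = 0.0825) or of all 30 libraries (adjusted p = 0.119). In pro-B cells Tcf4 was at 18.4 and 19.99 RPKM in controls and 23.4 and 24.5 with deletion, a difference that was not called (adjusted p = 0.192). In c-Kit-high cells it was at 46.4 and 49.4 RPKM in controls and at 48.4 and 44.7 with deletion, and the groups overlapped.

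Id3, the main Id transcript of these cells, was at 106 and 103 RPKM in pro-B controls and at 29.7 and 31.3 in deleted pro-B cells. It was lower in both deleted libraries, at 0.292 times the control mean, and fell by 1.74 ± 0.34 on the log2 scale (adjusted p = 0.00435). In c-Kit-high cells it was at 152 and 179 RPKM in controls and 125 and 98.5 with deletion, without overlap, and the difference of -0.57 ± 0.34 was not called (adjusted p = 0.307). In Rag2-null cells the controls were at 156 and 202 RPKM and the deleted libraries at 186 and 71.1, so the deleted pair spanned a wider range than the controls and overlapped them. The Rag2-null difference of -0.62 was not called (adjusted p = 0.242); without deleted replicate 1 it was -1.31 (adjusted p = 0.000731) and without deleted replicate 2 it was 0.07 (adjusted p = 0.904).

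Id1 was low in pro-B cells, at 2.84 and 6.74 RPKM in controls and 1.06 and 1.65 with deletion, which correspond to 30 and 63 against 12 and 17 implied reads. It fell by 1.22 ± 0.30 on the log2 scale (adjusted p = 0.00946), and the call was lost without control replicate 2 (log2 -0.72, adjusted p = 0.113) or without deleted replicate 1 (-1.04, adjusted p = 0.0762), while without control replicate 1 the difference was -1.73. In c-Kit-high cells Id1 was at 1.35 and 1.89 RPKM in controls and 0.234 and 0.288 with deletion, and fell by 1.05 ± 0.30 (adjusted p = 0.0273). The c-Kit-high value rests on very few reads, with 4 implied in control replicate 2 and 2 in deleted replicate 1, and the call was lost without either deleted library (adjusted p = 0.121 and 0.0975), without control replicate 2 (adjusted p = 0.154) and with no filter on low values (adjusted p = 0.0549). In Rag2-null cells the direction was the other way: controls were at 4.33 and 4.73 RPKM and deleted cells at 10.2 and 7.54. This difference of 0.82 ± 0.30 was not called in the fit of 14 libraries (adjusted p = 0.0647) and was called in the fit of the 4 Rag2-null libraries alone (adjusted p = 0.0412).

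Id2, best known for its part in innate lymphoid and dendritic cells, averaged below every member other than Id1 in each pro-B group. Its level in the 12 pro-B libraries ran from 0.882 to 4.17 RPKM, and it was called in none of the 3 settings. The log2 differences were -0.06, 0.68 and 0.27 in pro-B, c-Kit-high and Rag2-null cells, each with a 95% interval that includes 0.

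**Figure D2:**
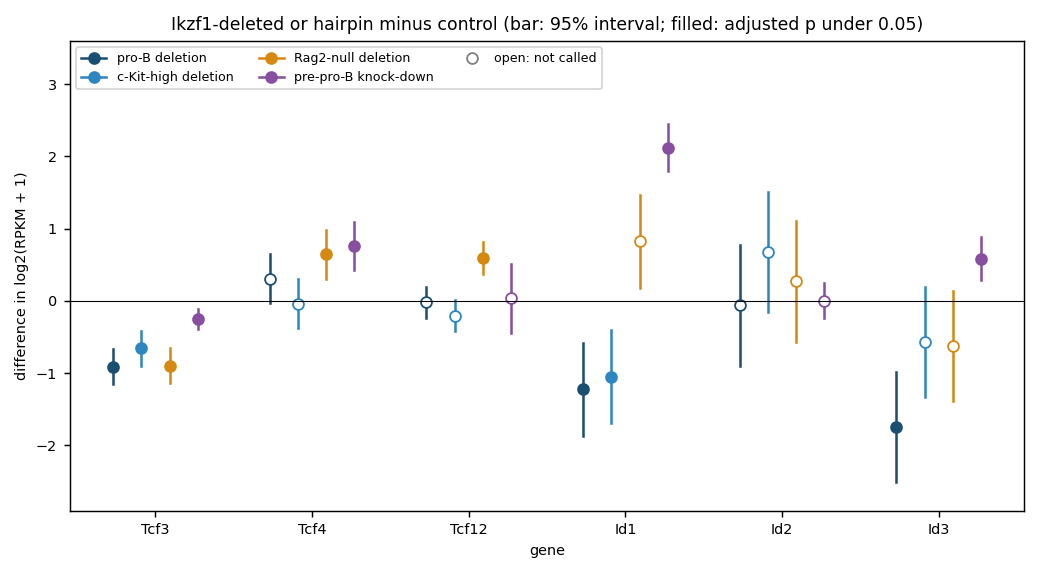
Difference in log2(RPKM + 1) between Ikzf1-deleted or hairpin and control libraries for the 6 genes in 4 comparisons; bars are 95% intervals, and filled points have an adjusted p under 0.05. The 4 Tcf3 points lie below 0, from -0.91 to -0.25, and Id1 is the gene with the widest spread, from -1.22 in pro-B cells to 2.12 with knock-down.

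The settings were compared by testing the difference between deletion effects. The Rag2-null libraries also had another range of library numbers and a higher implied depth. It was 26810000 to 33850000 reads, against 10190000 to 12330000 in pro-B libraries. Where resolved, c-Kit-high libraries were at 2310000 and 9330000 reads. Rag2 genotype, library numbers and depth cannot be told apart in the differences that involve Rag2-null cells. Id1 responded differently in Rag2-null cells, by 2.05 ± 0.42 on the log2 scale relative to pro-B cells (adjusted p = 0.00608) and by 1.87 relative to c-Kit-high cells (adjusted p = 0.0202). The latter was not called with quantile normalization (adjusted p = 0.055) or without 1 of 4 libraries: c-Kit-high deleted replicates 1 and 2 and control replicate 2, and Rag2-null deleted replicate 1 (adjusted p from 0.0568 to 0.0769). Tcf12 also differed, by 0.61 ± 0.14 relative to pro-B cells (adjusted p = 0.0128) and by 0.80 relative to c-Kit-high cells (adjusted p = 0.00628). Neither was called in the fit of all 30 libraries (adjusted p = 0.629 and 0.505), and the former was not called without pro-B control replicate 1 (adjusted p = 0.0543) or deleted replicate 1 (adjusted p = 0.0501). These were 2 of 6 members in each, against 13.1% and 6.33% of all genes. The Tcf3 effect was not shown to differ, with a Rag2-null minus pro-B difference of 0.01 (95% interval -0.33 to 0.35). Id3 was called for Rag2-null minus pro-B effects only without Rag2-null deleted replicate 2 (1.81, adjusted p = 0.000799), and Tcf4 for Rag2-null minus c-Kit-high effects only without Rag2-null control replicate 1 (0.93, adjusted p = 0.0125). For c-Kit-high against pro-B cells none of the 6 was called by limma, against 6.7% of all genes, with 1 member at an unadjusted p under 0.05. Id3 had the largest difference, 1.17 (adjusted p = 0.201), which was called when only the compared libraries were fitted (adjusted p = 0.00767).

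Marker sums of 7 lists were set side by side in each setting. Given here are those whose control and deleted libraries did not overlap. With 2 libraries on each side, ranges can fail to overlap by chance, so non-overlap alone does not show a shift. In pro-B cells the sum over 9 B-lineage markers was 2020 to 2067 RPKM in controls and 1537 to 1658 with deletion. Vpreb1 led this sum and fell from 842 and 836 to 576 and 574 RPKM. Pax5 rose from 133 and 139 to 246 and 243 RPKM, and Il7r from 8.49 and 7.93 to 22.1 and 22.7. The NK and innate lymphoid sum was 3.15 to 3.68 and 18.9 to 20.5 RPKM, led by Nkg7, with 4 and 8 of 12 markers at 0, and the conventional dendritic sum was 0.81 to 0.82 and 4.37 to 5.9 RPKM, with 4 of 8 at 0 in each. This conventional dendritic sum was mostly Ciita, at means of 0.59 RPKM in controls and 4.6 with deletion. The plasmacytoid dendritic sum (285 to 301 and 227 to 238 RPKM), the erythroid sum (74.2 to 93.4 and 49.25 to 58.5) and the granulocyte and monocyte sum (13.9 to 14.5 and 8.92 to 13.6) were lower with deletion. The latter 2 sums hold opposite shifts. Car2 led the erythroid sum and fell from 71.8 and 90.6 to 40.3 and 50.85 RPKM, while Hbb-b2 rose from 1.78 and 2.16 to 8.17 and 5.75. Lyz2 fell from 13.45 and 12.7 to 3.50 and 1.76 RPKM, while Prtn3 rose from 0.177 and 0.1 to 6.22 and 4.82. In c-Kit-high cells the B-lineage sum was 3296 to 4121 RPKM in controls and 2743 to 3007 with deletion, the conventional dendritic sum 4.03 to 7.23 and 14.85 to 16.6, led by Flt3, and the plasmacytoid dendritic sum 317 to 372 and 388 to 396. Within this plasmacytoid dendritic sum Irf8 rose from 119 and 98.7 to 169 and 178 RPKM, while Ly6d fell from 73.4 and 98.5 to 41.8 and 44.4. In Rag2-null cells the granulocyte and monocyte sum was 10.4 to 30.4 RPKM in controls and 45.2 to 49.1 with deletion, with 6 and 4 of 12 at 0, and the T-lineage sum 1.14 to 6.22 and 11.6 to 18.35, led by Tcf7, with 6 and 3 of 9 at 0. The erythroid sum there was 92.9 to 197 and 30.3 to 35.7 RPKM, and it was mostly Car2, at means of 141 and 30.3 RPKM. The NK and innate lymphoid sum was 2.02 to 2.21 and 3.3 to 7.7, and the conventional dendritic sum 0.16 to 0.24 and 1.58 to 1.7. The part of these differences in marker sums in the changes of the E protein and Id genes was not tested.

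Knock-down in Ebf1-deficient pre-pro-B cells gave a different picture, in which Id1 rose about 5-fold and Tcf4 and Id3 rose with it. Of the 6 genes 4 were called, 3 higher and Tcf3 lower, against 19.4% of 10744 genes called in either direction (13.4% higher, 6.04% lower). Tcf12 and Id2 were not called. The 2 control constructs were pooled; between Ren713 and the empty vector limma called 0 of 6 members and 0% of all genes, and at an unadjusted p under 0.05 it found 0 members and 58 genes.

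Id1 in the 8 control libraries was at 2.57, 4.84 and 5.95 RPKM (lowest, median, highest), and in the 8 libraries with an Ikzf1 hairpin at 16.8, 23.2 and 29.3. No hairpin library overlapped the controls, the ratio of means was 5.03, and the log2 difference was 2.12 ± 0.15 (adjusted p = 5.7e-08). Implied reads were 63 to 159 in controls and 300 to 811 with hairpins, so counting error is small here. The rise was present in each of the 4 sets of consecutive library numbers, at 2.00, 1.88, 2.21 and 2.40 on the log2 scale.

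Id3 in controls was at 7.60, 8.98 and 12.4 RPKM and with hairpins at 9.03, 14.8 and 19.7. The ranges overlapped, and the log2 difference was 0.59 ± 0.14 (adjusted p = 0.0075); with quantile normalization it was 0.53 and not called (adjusted p = 0.0557). Within the 4 sets it was 0.89, 0.46, 0.70 and 0.30, higher with hairpins each time. Id2, the most abundant Id transcript of these cells, was at 23.5, 33.5 and 37.7 RPKM in controls and 20.02, 32.3 and 38.7 with hairpins. Its pooled log2 difference was 0.00 (95% interval -0.24 to 0.25), an average of 0.20 with Ik4056 and -0.19 with Ik2709. The pooled groups could not be separated, and the hairpins are set side by side below.

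Tcf4 in controls was at 6.73, 8.13 and 11.5 RPKM and with hairpins at 10.1, 15.02 and 23.4. The highest control exceeded the lowest hairpin library only, and within each set the hairpins were higher, by 0.83, 0.90, 0.55 and 0.77 on the log2 scale. The overall log2 difference was 0.76 ± 0.16 (adjusted p = 0.00218). Tcf3 in controls was at 152, 157 and 173 RPKM and with hairpins at 118, 130.2 and 159.7. It fell by 0.25 ± 0.07 on the log2 scale (adjusted p = 0.0114), lower in each set, and with quantile normalization it fell by 0.20, which was not called (adjusted p = 0.194). Tcf12 was at 11.2, 14.2 and 25.8 RPKM in controls and 10.8, 14.98 and 25.1 with hairpins. The 4 highest Tcf12 values, from 23.6 to 25.8, were the 4 libraries of 1 set, and the log2 difference was 0.03 (adjusted p = 0.953).

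**Figure D3:**
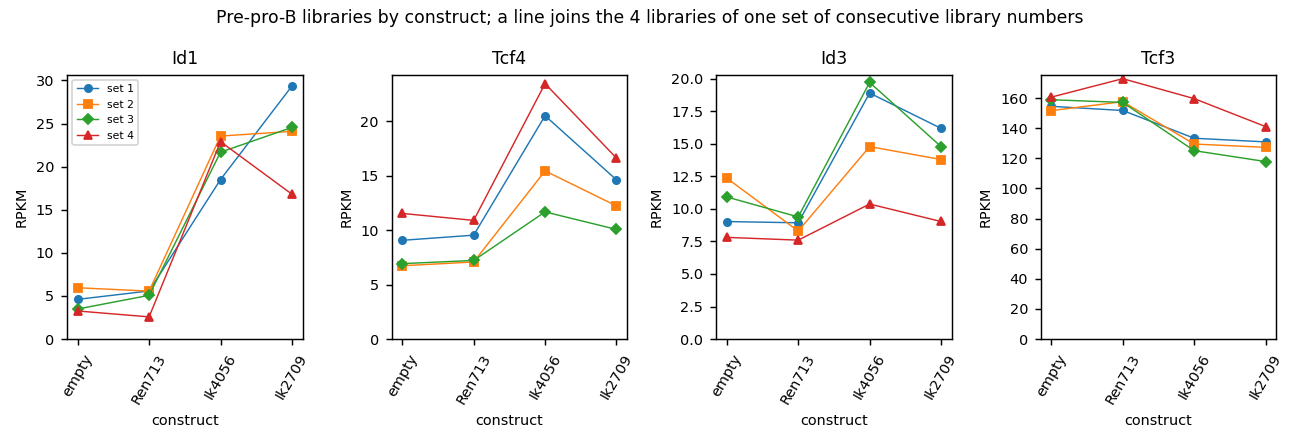
RPKM of Id1, Tcf4, Id3 and Tcf3 in the 16 pre-pro-B libraries by construct; each line joins the 4 libraries of a set of consecutive library numbers. Both Ikzf1 hairpins lie above both controls for Id1 in every set, with a range of 16.8 to 29.3 against 2.57 to 5.95 RPKM.

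The 2 hairpins, which share their controls, gave these values side by side. For Id1 the log2 difference was 2.07 with Ik4056 and 2.17 with Ik2709 (adjusted p = 8.08e-07 and 9.86e-07). For Tcf4 it was 0.94 (adjusted p = 0.00218) and 0.58 (adjusted p = 0.0655), and for Id3 0.70 (adjusted p = 0.00988) and 0.48 (adjusted p = 0.104). For Tcf3 it was -0.21 (adjusted p = 0.0798) and -0.29 (adjusted p = 0.0249). So 3 of 6 members were called with Ik4056, against 18.9% of all genes, and 2 of 6 with Ik2709, against 11.7%. The Id3 call with Ik4056 was lost without replicate 1 of that hairpin (adjusted p = 0.0514), and the Tcf3 call with Ik2709 without its replicate 1, 2 or 3 (adjusted p from 0.0589 to 0.113). For Ik2709, leaving out single libraries also gained calls of Tcf4 (Ik2709 replicate 3, empty vector replicate 4 or Ren713 replicate 4, adjusted p from 0.0324 to 0.0488) and of Id3 (Ik2709 replicate 4, adjusted p = 0.0244), and for Ik4056 a call of Tcf3 (Ik4056 replicate 4, adjusted p = 0.0199).

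Blocking on the sets of library numbers gave 5 of 6 calls for each hairpin, against 51.0% of all genes with Ik4056 and 37.8% with Ik2709. With the block, Tcf3 with Ik4056 (adjusted p = 0.00147) and Tcf4 and Id3 with Ik2709 (adjusted p = 1.9e-06 and 0.000872) were called as well. So was Id2, which was higher with Ik4056 by 0.20 ± 0.07 on the log2 scale (adjusted p = 0.021) and lower with Ik2709, by -0.19 ± 0.07 (adjusted p = 0.0302). Between the hairpins themselves none of the 6 was called by limma without the block, against 3.33% of all genes, with 1 member, Id2, at an unadjusted p under 0.05. With the block, against 22.4% of all genes, 3 were called lower with Ik2709 than with Ik4056: Id2 by -0.39 (adjusted p = 0.00141), Tcf4 by -0.36 (adjusted p = 0.00252) and Tcf12 by -0.25 (adjusted p = 0.0229).

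Granulocyte and monocyte markers also moved with knock-down: the sum over 12 was 29.4 to 123 RPKM in control libraries and 475 to 1354 with hairpins, led by Mpo in controls and Prtn3 with hairpins, with up to 3 of the 12 at 0. Over 12 NK and innate lymphoid markers the sum was 61.9 to 134 RPKM in controls and 61.3 to 129 with hairpins, led by Nkg7. Over 12 plasmacytoid dendritic markers it was 627 to 1279 and 586 to 1132, a sum that holds opposite shifts. Irf8 was at 18.96 to 47.5 RPKM in controls and 73.6 to 160 with hairpins, while Cox6a2 was at 313 to 604 and 161 to 315. The T-lineage sum was 4.6 to 10.2 RPKM in controls, 12.3 to 26.1 with Ik4056 and 3.88 to 4.91 with Ik2709, and over 8 conventional dendritic markers the sum was 127 to 202 and 115 to 179.5. This conventional dendritic sum was mostly Flt3, at group means of 142.6 to 159.7 RPKM, with 2 of the 8 at 0 in each group. The part of these shifts in the Id1, Tcf4 and Id3 differences was not tested.

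Summed over the 3 E protein genes and the 3 Id genes, the RPKM ratio of E protein to Id RNA describes the balance at the RNA level only. It was 2.87 and 2.91 in pro-B controls and 6.36 and 5.54 with deletion, since the Id sum fell from a mean of 111 to 33.5 RPKM and the E protein sum from 321 to 199. In c-Kit-high cells the ratio was 3.48 and 3.02 in controls and 2.96 and 3.59 with deletion, and the groups overlapped. In Rag2-null cells it was 2.18 and 1.52 in controls and 1.202 and 2.52 with deletion, also overlapping. In pre-pro-B cells it was 3.56 to 4.81 in the 8 control libraries and 1.85 to 3.17 with hairpins, without overlap. The ratio was thus higher with deletion in pro-B cells and lower with knock-down in pre-pro-B cells; these are descriptions with no test.

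The makeup of each sum moved as well. Tcf3 made up 83.9% of the E protein sum in pro-B controls and 71.9% with deletion, and 87.8% and 71.2% in Rag2-null cells. In pre-pro-B cells it made up 86.3% and 86.7% in the 2 control groups, 79.5% with Ik4056 and 82.1% with Ik2709. The share of Id1 in the Id sum was 9.50% and 10.7% in the pre-pro-B control groups and 29.6% and 36.4% with Ik4056 and Ik2709. Id3 held 94.0% of the Id sum in pro-B controls and 91.0% with deletion, so its share changed little while its level fell.

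**Figure D4:**
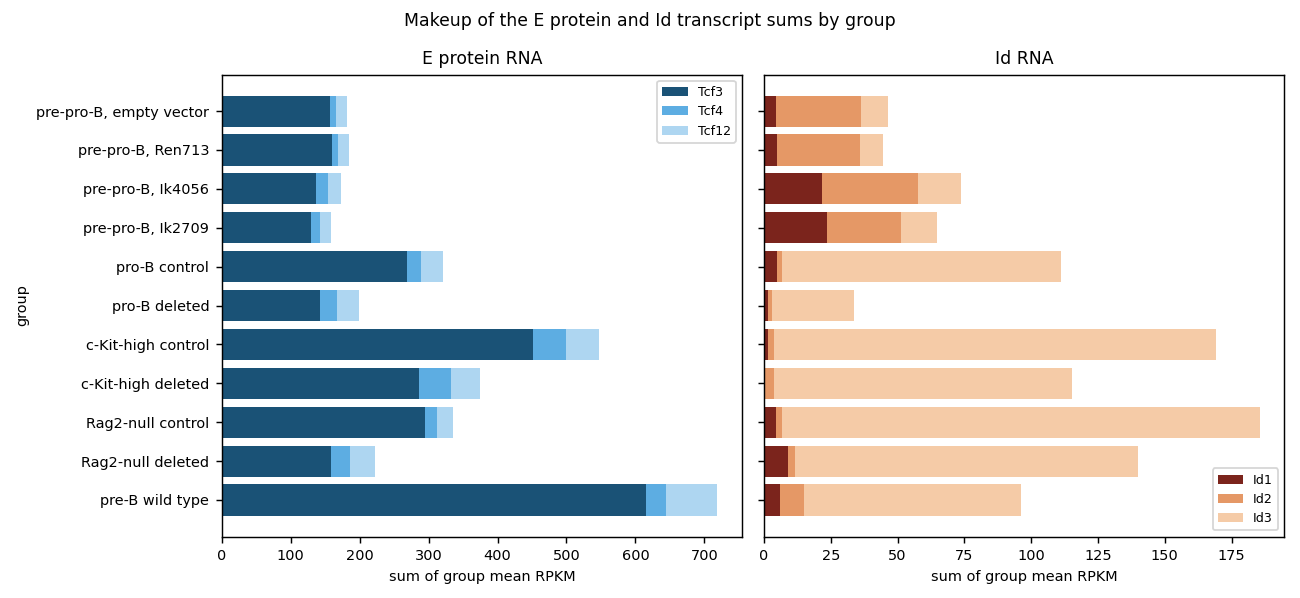
Group mean RPKM stacked over the 3 E protein genes (left) and the 3 Id genes (right) in 11 groups; the horizontal scales differ. The Id sum is mostly Id3 in pro-B and pre-B groups and mostly Id2 in pre-pro-B controls, and the Id1 part widens with hairpins to 29.6% and 36.4%.

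Between groups of control cells, which differ in stage or genotype, many genes differed, and the member counts are read against that. Relative to pro-B controls, c-Kit-high controls had more Tcf4 (1.28 on the log2 scale, adjusted p = 4.85e-05), more Tcf3 (0.74, adjusted p = 0.000184) and more Tcf12 (0.56, adjusted p = 0.000655), and less Id1 (-1.07, adjusted p = 0.00941). These 4 of 6 stand against 50.8% of all genes. The Id1 difference was not called without pro-B control replicate 2 (-0.56, adjusted p = 0.128) or c-Kit-high control replicate 1 (adjusted p = 0.0587), and Tcf12 was not called in the fit of all 30 libraries (adjusted p = 0.233). Id3 was not called (0.66, adjusted p = 0.136), but was with quantile normalization (adjusted p = 0.0342) and in the fit of the compared libraries alone (adjusted p = 0.00497). Among the 6 genes, Rag2-null and pro-B controls differed by a called amount in Tcf12, which was lower in the former (-0.44 ± 0.10, adjusted p = 0.00573), 1 of 6 against 31.6% of all genes. That call was lost in the fit of all 30 libraries (adjusted p = 0.417), and Id3 (0.76) was called when only the compared libraries were fitted (adjusted p = 0.0177). Rag2 genotype, the range of library numbers and the implied depth cannot be told apart in this comparison. The c-Kit-high controls also differed from pro-B controls in library numbers, and their replicate 2 had an implied depth of 2310000 reads. The part of this in their differences was not tested.

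In pre-B cells Tcf3 was at 587 and 645 RPKM and Tcf12 at 77.7 and 71.1, the highest of all groups for both. Against c-Kit-high controls all 6 members were called, against 49% of all genes: Id2 (1.85), Id1 (1.42), Tcf12 (0.62) and Tcf3 (0.45) were higher, and Id3 (-1.02) and Tcf4 (-0.73) were lower. The Id3 call was lost without any 1 of the 4 libraries (adjusted p from 0.0698 to 0.141) and with median-ratio scaling (adjusted p = 0.063). The Tcf3 call was lost with quantile normalization (adjusted p = 0.0518) and the Tcf12 call in the fit of all 30 libraries (adjusted p = 0.191). Against pro-B controls 4 of 6 were called, all higher, against 68.8% of all genes in either direction and 31.9% higher: Id2 (1.88), Tcf3 (1.19), Tcf12 (1.18) and Tcf4 (0.55). Tcf4 was not called without pro-B control replicate 1 (adjusted p = 0.0527), without pre-B replicate 1 (adjusted p = 0.0841) or in the fit of all 30 libraries (adjusted p = 0.0834). Without pro-B control replicate 2, Id1 was called as well (0.86, adjusted p = 0.018). Id2 was at 9.83 and 8.26 RPKM in pre-B cells. The pre-B libraries differ from the others in the granulocyte and monocyte marker sum given above, 7477 RPKM or more, and in genotype; the part of either in these differences was not tested.

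Id2 and Id3 traded places between pre-pro-B and pro-B cells. Id2 averaged 31.7 RPKM in the 8 pre-pro-B controls and 1.90 in pro-B controls, 3.57 higher on the log2 scale (adjusted p = 3.07e-11). Id3 averaged 9.29 and 104, and was lower in pre-pro-B cells by -3.37 (adjusted p = 8.34e-11). The 3 E protein genes were each lower in pre-pro-B cells, Tcf4 by -1.10, Tcf12 by -0.998 and Tcf3 by -0.76 on the log2 scale, and Id1 was not called (-0.02). The Tcf12 call was lost without pro-B control replicate 1 (adjusted p = 0.0563). In all, 5 of 6 were called against 55.5% of all genes. Stage, culture, Ebf1 genotype and vector cannot be told apart in this comparison. Nor can the range of library numbers, the implied depth, the number of intact Ikzf1 alleles and the Cre allele of Cd79a in the pro-B controls.

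Genes known as direct or indirect E protein targets in early B cells were followed as a list of 25, of which 24 matched. In pro-B cells 6 of 24 rose and 11 fell with deletion, against 13.5% and 9.89% of all genes, with a list median of -0.21. The largest falls were Dntt, the terminal transferase gene (-4.84, from 177 to 5.32 RPKM), Rag1, a recombinase gene (-3.61), and Erg, an Ets factor gene (-3.03). The co-receptor gene Cd22 (2.91), the factor gene Irf4 (1.78) and the IL-7 receptor gene Il7r (1.35) rose. Of the same 24 genes 2 rose and 6 fell in c-Kit-high cells, against 11.6% and 5.6% of all genes, Dntt (-1.81) and Rag2 (-1.74) most. In Rag2-null cells 1 rose, Pax5 (0.69), and 5 fell, against 15.5% and 6.84% of all genes, among them Spib (-2.08), Cdkn1a (-1.61) and Vpreb2 (-0.82). With knock-down 15 were tested, of which 5 rose, Vpreb2 (1.84) and Cd79b (1.53) most, and 3 fell, Rag2 (-1.12), Rag1 (-0.72) and Il7r (-0.52), against 13.4% and 6.04% of all genes. Vpreb2 was at 5.47 to 12.1 RPKM with Ik4056 and 0.734 to 1.36 with Ik2709, against at most 0.266 in controls.

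Cofactors and regulators of E proteins were a list of 16, of which 15 were tested. Lmo2, which bridges E protein and Scl dimers to other factors, was at 6.18 and 6.11 RPKM in pro-B controls and 56.8 and 62.0 with deletion, 3.08 ± 0.24 higher on the log2 scale (adjusted p = 2.99e-06). It also rose in Rag2-null cells (1.45) and with knock-down (1.05). Lmo4, a related LIM-only gene, rose in pro-B (1.53) and c-Kit-high cells (1.71) and with knock-down (0.84). In the knock-down, Lmo4 was at 133 to 164 RPKM with Ik4056 and 54.7 to 60.6 with Ik2709, against 44.1 to 59.6 in controls, so the pooled value rests on Ik4056. The list counts were 3 up and 1 down with deletion in pro-B cells, 2 and 1 where c-Kit was high, 3 and 0 without Rag2, and 3 and 1 with knock-down. With 15 tested these are near the shares over all genes, which were 13.5%, 11.6%, 15.5% and 13.4% up and 9.89%, 5.6%, 6.84% and 6.04% down.

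Signals that are known to act on Id genes, the Egr factors, BMP and TGF-beta components and a few others, were a list of 20. In Rag2-null cells 8 of 18 tested rose and none fell, with a median of 0.54 against 0.06 over all genes, and 15.5% of all genes called higher. The leading members were Eng, a co-receptor of TGF-beta and BMP ligands, Smad7, an inhibitor of that pathway, and Bmpr2, a BMP receptor. Eng was at 109.6 and 61.0 RPKM in Rag2-null controls and 287 and 223 with deletion (1.62 ± 0.26, adjusted p = 0.000964). Smad7 was at 5.99 and 4.97 RPKM in controls and 15.7 and 20.4 with deletion (1.55, adjusted p = 0.000127). In pro-B cells 3 of 18 rose and 1 fell, against 13.5% and 9.89% of all genes, led by Tgfbr2, a TGF-beta receptor gene (1.17). In c-Kit-high cells 4 of 18 rose and 1 fell, against 11.6% and 5.6%, again with Eng (0.83) and Tgfbr2 (0.81).

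With knock-down 3 of 17 tested genes of this list rose and 1 fell, near the 13.4% and 6.04% of all genes. Eng was at 0.478 to 1.04 RPKM in the 8 control libraries and 5.25 to 17.2 in the 8 hairpin libraries, without overlap (2.59 ± 0.14, adjusted p = 3.19e-09). Nfil3, which is known to act upstream of Id2 in innate lymphoid cells, rose from a mean of 12.5 to 30.4 RPKM (1.17, adjusted p = 7.27e-07). Id2 was not called in the pooled comparison. Smad6, another inhibitor of BMP signals, rose (0.35) and Ets1 fell (-0.53). Eng and Id1 were thus both higher in Rag2-null deleted and in hairpin libraries, with Id1 not called in the former, while in c-Kit-high cells Eng rose and Id1 fell, and in pro-B cells Eng was not called (-0.13) and Id1 fell.

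**Figure D5:**
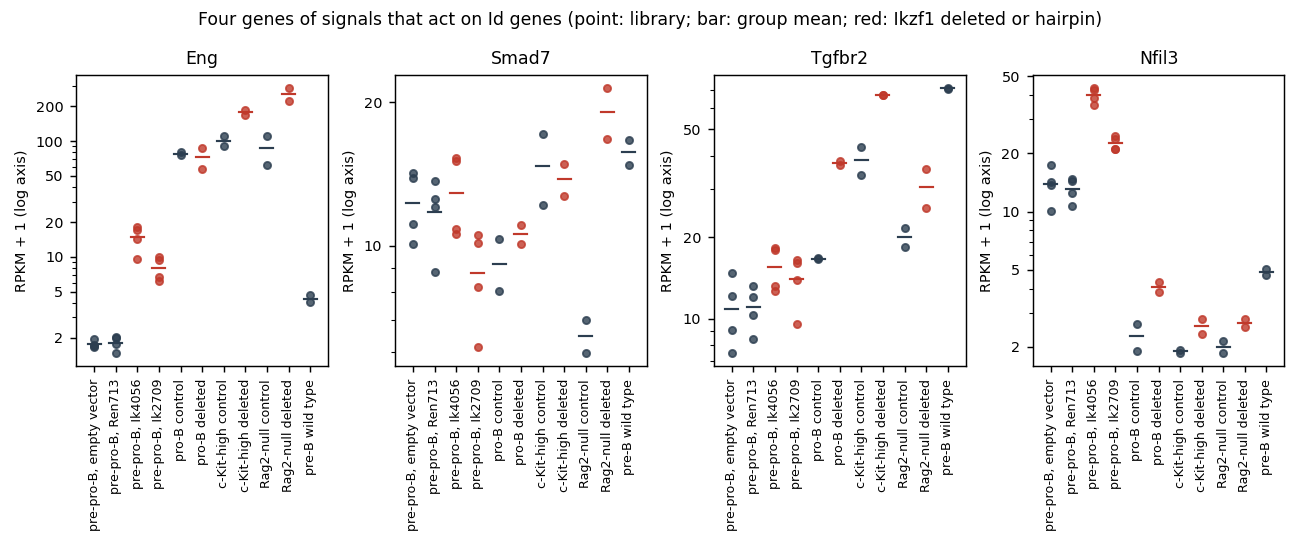
RPKM + 1 (log axis) of Eng, Smad7, Tgfbr2 and Nfil3 in 30 libraries of 11 groups; a point is a library, a bar the group mean, and red marks Ikzf1 deletion or an Ikzf1 hairpin. Eng is near 1 RPKM in pre-pro-B controls, 5.25 to 17.2 with hairpins, and 287 and 223 in Rag2-null deleted cells.

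The genes whose log2(RPKM + 1) followed each member most closely over the 30 libraries were ranked by Pearson r among 12272 genes. The nearest were Padi4 for Tcf3 (0.957), Tecpr1 for Tcf4 (0.958), Jak1 for Tcf12 (0.978), Cox4i2 for Id1 (0.883), Smim5 for Id2 (0.977) and Phyh for Id3 (0.968). Over the 14 pro-B and pre-B libraries they were Myo1c for Tcf3 (0.981), Plcb2 for Tcf4 (0.963), Glg1 for Tcf12 (0.982), Asah1 for Id1 (0.880), Trim17 for Id2 (0.925) and Gimap1 for Id3 (0.917). No member had the same nearest gene in both sets. The libraries fall into groups by stage, so these values describe shared group levels.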

How the data were processed

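The 30 RNA libraries were strand-specific, single-end libraries of polyadenylated RNA, per the labels' protocols. The authors deposited RPKM values per gene model and library. TopHat 1.4.1, HTSeq 0.5.3, DESeq 1.8.3 and build mm9 are named, with no roles, per the submitters' processing notes. Groups came from the labels. The 6 members and all gene lists were chosen with earlier results of these data known. Of 21025 gene models, 20657 could be given a current gene symbol through their accessions.

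Genes that reached 1 RPKM in 2 or more libraries of a fit were tested on log2(RPKM + 1), a pseudocount of 1, with limma 3.58.1 (R 4.3.3, trend and robust moderation). The 14 pro-B and pre-B libraries, with 7 residual degrees of freedom, and the 16 pre-pro-B libraries, with 12, were fitted separately; a fit of all 30 served the comparison across both. P-values were adjusted by Benjamini-Hochberg over all genes of a fit, and the limma step was tested on simulated data. Whole-read steps in low values, within 0.05 reads, gave implied depths for 26 libraries and not for 4. No pair of libraries was identical.

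Same-numbered sets of consecutive library numbers pair the 16 pre-pro-B libraries: the deviations from group means of the 24 same-set pairs correlated at 0.52 or more (median 0.775), against a median of -0.22 between sets. Named genes were the members, Ikzf1, up to 3 called genes each way per list and comparison, the nearest genes by correlation, and the leading markers. Alternatives were other pseudocounts, filters, scalings, moderation, sets of libraries, the block, and leaving out each library. Figures were drawn with matplotlib. The result for 1 listed gene is not reported here.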

Additional observations from a re-analysis of the deposited data

Results flagged for a closer look

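The effect of deletion differed between settings for Id1 and Tcf12 in limma's test of the difference. Id1 was lower with deletion in pro-B cells and averaged higher, without a call, in Rag2-null cells, a difference of 2.05 on the log2 scale, and against c-Kit-high cells the difference was 1.87. For Tcf12 the differences were 0.61 and 0.80.

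Over the 6 genes in the 4 groups of 4 libraries, 24 sets of values were tested for a library far from the others, and 2 had one, where chance gives about 1 in 20. Both were Ren713 control libraries. The lowest Id1 value was 2.57 RPKM and the lowest Id2 value was 23.5 RPKM, and these came from different libraries. The Id2 library belongs to a set of consecutive library numbers in which Id2 was the lowest for each of the 4 constructs, and the Id1 library to a set in which Id1 was also lowest for the empty vector (3.26 RPKM), so neither stands apart from its set.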

How the results depend on the processing

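Of 1692 recomputed member differences, 1543 kept their direction and side of the threshold, 43 lost and 29 gained a call, none with a call reversed, and 77 with no call changed sign. Tcf3 in the 3 deletions and Id3 in pro-B cells were called under all 14 alternatives, and Id1 and Tcf4 with knock-down under all 27. With no filter on low values 1 member was called lower in c-Kit-high cells. In the fit of all 30 libraries 0 were called higher in Rag2-null cells, 1 in each difference of deletion effects involving them and 0 between Rag2-null and pro-B controls. With only the compared libraries, 2 were called between those controls and 1 for c-Kit-high minus pro-B effects. Quantile normalization gave 0 called lower with knock-down and 1 for Rag2-null minus c-Kit-high effects. Leaving out 1 library gave 2 to 3 called lower in pro-B cells, 1 to 2 in c-Kit-high cells, 1 to 2 higher and 1 to 2 lower in Rag2-null cells, 1 to 3 for each Rag2-null difference, 3 to 4 between c-Kit-high and pro-B controls, 5 and 3 to 5 for pre-B against c-Kit-high and pro-B controls, 4 to 5 between pre-pro-B and pro-B controls, and 2 to 4 and 1 to 3 with Ik4056 and Ik2709. The replicate block gave 5 with Ik4056, 5 with Ik2709 and 3 between hairpins, and changed no other call of a member; over all genes it raised the knock-down calls from 2086 to 5575, those of the hairpins from 2031 to 5478 and from 1254 to 4060, and those between hairpins from 358 to 2407. Fitting only the compared libraries lowered all-gene calls from 2049 to 1350 in c-Kit-high cells, from 2667 to 1547 in Rag2-null cells, from 756 to 276 for their difference and from 358 to 163 between hairpins; all 30 libraries lowered those between Rag2-null and pro-B controls from 3777 to 1954. Leaving out 1 library gave 1688 to 1915 all-gene calls in pro-B cells (2791 with all), 1322 to 2117 in c-Kit-high cells and 1577 to 2509 in Rag2-null cells, and a minimum of 3 RPKM gave 237 between hairpins. Median-ratio scaling moved the all-gene median of pre-B against c-Kit-high cells from -0.11 to 0.00. Depth limits Id1 and Id2 in c-Kit-high cells, with 2 to 4 implied Id1 reads in the libraries resolved.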

Other observations

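A further list of 12 helix-loop-helix genes mixed known E protein partners, such as Tal1, with repressor genes such as Bhlhe41 and Hes1, and with Id4. Most of them were low, and changes of the repressor genes are not read as changes of E protein partners. In pro-B cells 1 of 6 tested rose with deletion and 2 fell, against 13.5% and 9.89% of all genes. Bhlhe41, a bHLH repressor gene, rose from a mean of 0.916 to 25.0 RPKM (log2 3.77 ± 0.26, limma adjusted p = 1.14e-06). It also rose in c-Kit-high (1.39) and Rag2-null cells (2.51). The secretory-cell factor gene Bhlha15 (-1.34) and Tal1, which encodes Scl (-1.09), fell in pro-B cells. In c-Kit-high cells 2 of 6 rose and none fell, against 11.6% and 5.6% of all genes. In Rag2-null cells 1 of 6 rose, and Bhlhe40 (-0.96) and Bhlha15 (-0.73) fell, against 15.5% and 6.84%. With knock-down 3 of 5 tested rose, namely Tal1 (0.79), Hes1 (0.56) and Lyl1 (0.37), against 13.4% of all genes. Hes1 was at 1.70 to 2.77 RPKM with Ik4056 and 0.330 to 0.783 with Ik2709, against 0.231 to 0.981 in controls, so its pooled value rests on Ik4056.

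Genes known as E protein targets in T cells, with Notch and receptor genes, were a list of 12. In Rag2-null cells 2 of 6 tested rose with deletion, Tcf7, a T-lineage factor gene, from 3.61 to 14.8 RPKM (2.00 ± 0.47, limma adjusted p = 0.0125) and Notch1 from 13.3 to 37.0 RPKM (1.42, limma adjusted p = 0.000203). The cytokine-signal inhibitor gene Socs1 fell there (-1.27), and the shares over all genes were 15.5% up and 6.84% down. In pro-B cells none of 6 rose, and Socs3 (-1.72) and Hes5 (-1.31) fell, against 13.5% and 9.89% of all genes. Hes5 (-1.01) was the 1 of 6 that fell in c-Kit-high cells, against 5.6%, and none rose. With knock-down 3 of 8 tested rose, among them Cd4 (0.91) and Socs3 (0.66), and Socs1 (-0.70) fell. The shares over all genes were 13.4% up and 6.04% down. Cd4 was at 1.73 to 3.36 RPKM with Ik4056 and 0.552 to 1.23 with Ik2709, against 0.104 to 0.517 in controls.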
